A study of Mus musculus with 20 samples.

Results

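Hao1, Cdc14a and Cdc42bpa are 3 genes outside iron transport for which an iron-responsive element (IRE) in the 3' untranslated region has been reported. Each was set beside its closest relative, Hao2, Cdc14b and Cdc42bpb, which was included without a reported element. All probe sets that the platform annotation assigns to 1 of these 6 genes alone were taken, and each was kept separate. They are 12 of the 45037 probe sets tested, 8 for the reported IRE genes and 4 for the relatives. Hao1 (1420420_at), Hao2 (1418654_at) and Cdc42bpb (1434652_at) have 1 probe set each, Cdc14b has 2, Cdc14a has 3 and Cdc42bpa has 4.

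An IRE is a short RNA hairpin that iron regulatory proteins hold when cellular iron is low. In a 5' untranslated region, as in ferritin mRNA, the bound protein blocks translation. In the 3' untranslated region of transferrin receptor mRNA it protects the message from decay. The IREs of Cdc14a and Cdc42bpa were first described for the human genes, and that of Hao1 for the mouse gene. Whether the mouse Cdc14a and Cdc42bpa mRNAs carry the element was not analysed here. Hao1 encodes glycolate oxidase, a peroxisomal enzyme of liver that turns glycolate into glyoxylate, and Hao2 encodes a related oxidase of longer 2-hydroxy acids. Cdc14a and Cdc14b are phosphatases named for the yeast enzyme that drives exit from mitosis. Cdc42bpa and Cdc42bpb encode the MRCK kinases alpha and beta, which act downstream of the small GTPase Cdc42 on actomyosin.

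The measurement was made in a test tube. Total RNA of C57BL6/J mice (sexes mixed) was pooled by tissue, and 50 µg was combined with His-tagged recombinant IRP1 from E. coli and a rabbit antibody against IRP1. Control reactions left the recombinant protein out. Of the RNA recovered from each precipitate, about 120 ng was amplified in 2 cycles and hybridized to an Affymetrix Mouse Genome 430 2.0 array. Every tissue had 2 IRP1 and 2 control arrays, which made 10 groups and 20 arrays. The donors of duodenum, liver and spleen had eaten iron-poor food, with less than 10 mg of iron in a kg, for the 21 days that followed weaning. The donors of brain and bone marrow were 8 to 10 weeks old and had normal dietary iron, so tissue, diet and age cannot be told apart. A pool of 6 animals is stated for brain and bone marrow, a pool of 4 for 1 duodenum sample, and no number for the rest. Nothing says that the 2 arrays of a group came from separate animals, so every p-value below measures the spread between precipitations and arrays of pooled RNA.

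Values are the authors' log2 signals. Array medians lay between 5.50 and 5.62, and the lowest values between 2.63 and 2.89, so a level near 4 is close to the floor of the scale. Arrays of 1 tissue correlated at 0.978 to 0.994 across probe sets and arrays of different tissues at 0.745 to 0.951. The labelled tissues carried their markers: for example, the mean of 7 hepatocyte markers was 12.84 to 13.63 in liver arrays and at most 8.06 elsewhere. Markers of pancreatic acinar cells were also high, at 13.15 and 14.16 in duodenum controls and 9.32 and 10.10 in spleen controls. The tissues' own markers read 13.67 and 13.71 (enterocyte, duodenum controls) and 9.63 and 9.86 (lymphocyte, spleen controls). The part of acinar RNA in the duodenum and spleen values was not tested. Affymetrix hybridization controls were low on 3 arrays, spleen IRP1 array 2 by 1.06 log2, spleen control array 2 by 1.26 and bone marrow control array 1 by 0.74 below the median array. Without these 3 arrays, 2 of 72 member calls on IRP1 differences changed, both gained by Hao1 (in liver and brain). Of 120 pairwise calls on member control levels 10 were lost and 1 was gained, and those of the named pairs are given beside them.

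Hao1 was called enriched by IRP1 in the mean of the 5 tissues, and the other 11 probe sets of these genes were not called. In that mean Hao1 was 2.50-fold higher in IRP1 precipitates than in controls. The call was lost without liver (adjusted p = 0.0801 in limma) and with values under log2 5 set to 5 (adjusted p = 0.108 in limma). Outside liver all Hao1 controls lay near the floor. The largest measured difference was 4.09-fold, in liver, the one tissue where the control precipitates also gave a strong Hao1 signal. The 7 probe sets of Cdc14a and Cdc42bpa, the other reported IRE genes, differed by -0.13 to 0.13 log2 in that mean. No 95% interval of the mean among the 11 reached above 1.26-fold. Cdc14a 1446493_at and Cdc42bpa 1438449_at and 1442260_at never rose above 4.37, and Hao2 was near the floor outside liver, so their narrow intervals cannot exclude a rise. In single tissues intervals reached higher, as 1.94-fold for Cdc14a 1436913_at in bone marrow and 1.66-fold for Cdc42bpa 1435847_at in brain. Across the whole array 0.773% of probe sets were called higher and 1.03% lower in this mean by limma at an adjusted p of 0.05, against 1 of 12 member probe sets called higher and 0 lower. At an unadjusted p of 0.05, 2 of the 12 passed, Hao1 upwards and Cdc42bpb downwards, where 5.97% of all probe sets passed upwards and 10.4% downwards. In single tissues 0 members were called in either direction. The share of all probe sets called higher and lower was 0.0799% and 0.0244% in duodenum, 0.091% and 0.0933% in liver, 0.0688% and 0.0333% in spleen, 0.127% and 0.00444% in bone marrow, and 0.0866% and 0.0377% in brain.

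**Figure D1:**
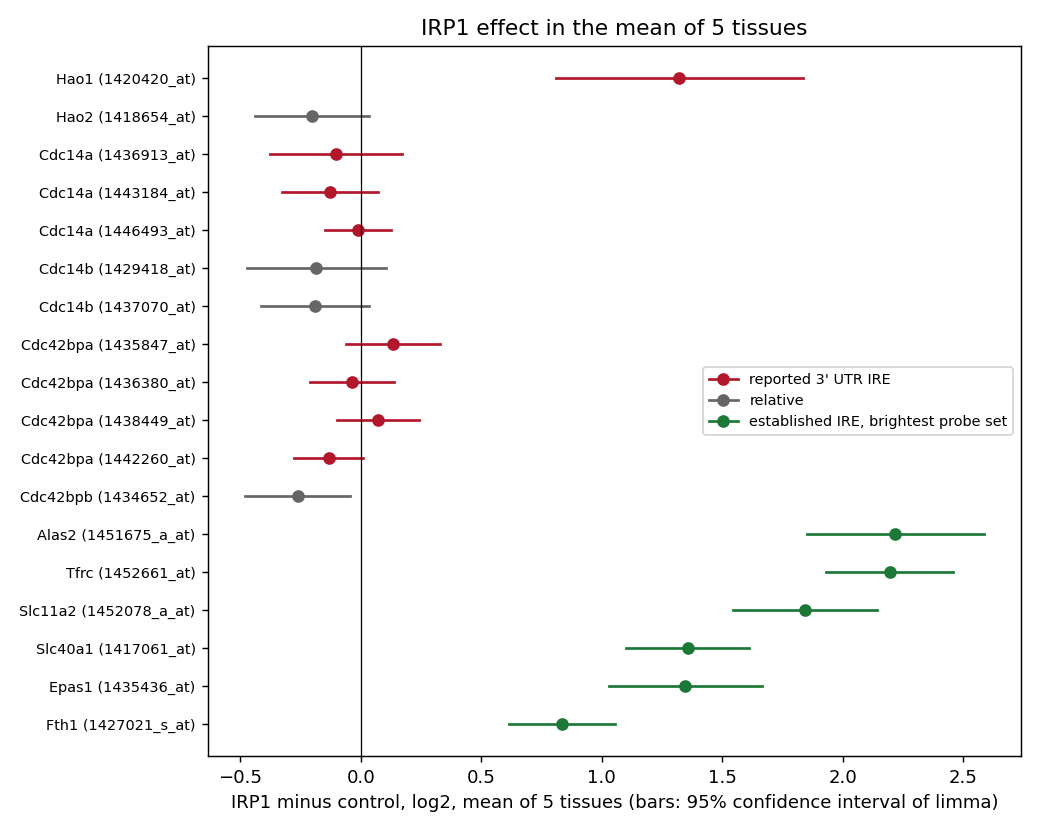
IRP1 minus control on the log2 scale (horizontal axis), averaged over the 5 tissues, for the 12 member probe sets and for the brightest probe set of 6 genes with an established IRE. Points are estimates and bars 95% confidence intervals of limma, and Hao1 (1.32) sits among the established IRE genes (0.84 to 2.22) while the other members lie between -0.26 and 0.13.

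Liver gave the strongest Hao1 signal. In liver, Hao1 levels were 12.50 and 12.97 in the IRP1 arrays, against 10.57 and 10.84 in the controls. The groups did not overlap, as in 19.2% of all probe sets with both IRP1 arrays above both controls in liver. The difference of 2.03 log2 (SE 0.54, 95% interval 0.88 to 3.18) was the 18th largest positive difference of all probe sets in liver. Its adjusted p in limma was 0.139 when all 20 arrays shared 1 estimate of the spread, and 0.00907 in a fit of the 4 liver arrays alone. The shared estimate includes the spleen, where the 2 IRP1 arrays lay far apart. Leaving out either spleen IRP1 array leaves that group with 1 array and no spread of its own, and the liver difference stayed at 2.03 log2. A fit of the 4 brain arrays alone called 0 probe sets in either direction.

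In brain the IRP1 arrays stood clear of the controls as well, as they did for 16.7% of all probe sets. Hao1 levels there were 5.94 and 5.45 in the IRP1 arrays, against 3.77 and 3.86 in the controls, a difference of 1.88 log2 (3.68-fold, SE 0.54, adjusted p = 0.476 in limma). The controls sat at the 12th to 13th percentile of their arrays, near the floor, while the IRP1 arrays sat at the 56th and the 47th. Bone marrow showed a smaller gap, with levels of 4.94 and 4.59 in the IRP1 arrays and 4.12 and 3.83 in the controls (0.79 log2, adjusted p = 0.964 in limma). IRP1 arrays were above both controls for 19% of all probe sets in bone marrow and for 16.6% in duodenum. The duodenum levels were 4.49 and 3.94 in the IRP1 arrays, against 3.75 and 3.71 in the controls (0.48 log2, adjusted p = 1 in limma). Again no control array reached an IRP1 array, but the 4 duodenum values lay between the 9.64th and the 28.8th percentile of their arrays.

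Spleen was the exception. Hao1 levels there were 4.02 and 6.83 in the IRP1 arrays, against 3.92 and 4.08 in the controls. The IRP1 arrays disagreed by more than the difference of the means (1.43 log2, adjusted p = 0.419 in limma), and the first lay between the 2 controls. Markers of hepatocytes differed between the arrays in the same direction: the mean of the 7 measured of 8 markers was 6.23 and 7.64 in the spleen IRP1 arrays and 6.25 and 7.81 in the controls. Albumin (Alb) read 8.12 and 11.18 in the IRP1 arrays, against 8.34 and 11.74 in the controls. The fibrinogen beta chain (Fgb) read 4.65 and 6.06 in the IRP1 arrays, against 4.48 and 6.02 in the controls. Array 2 was thus the one with more hepatocyte marker signal in both reactions, and Hao1 was high in the IRP1 reaction of that number and not in its control. The part of hepatocyte RNA in this value was not tested. In brain the albumin level also varied, 10.31 and 7.93 in the IRP1 arrays and 10.95 and 7.54 in the controls. The mean of the 7 markers was 7.86 and 7.03 in the brain IRP1 arrays, against 8.06 and 6.84 in the controls. Hao1 read 5.94 and 5.45 in the brain IRP1 arrays, so it was higher in array 1, as were albumin and the marker mean. Not every marker did the same. Transthyretin (Ttr) read 13.25 and 13.80 in the brain IRP1 arrays, and tyrosine aminotransferase (Tat) was nearly level at 6.07 and 6.04. Ttr was also high in the brain controls (14.13 and 13.70), so the marker mean in brain includes a strong Ttr signal. In the brain controls Hao1 read 3.77 and 3.86. The part of hepatocyte RNA in the brain values was not tested either.

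**Figure D2:**
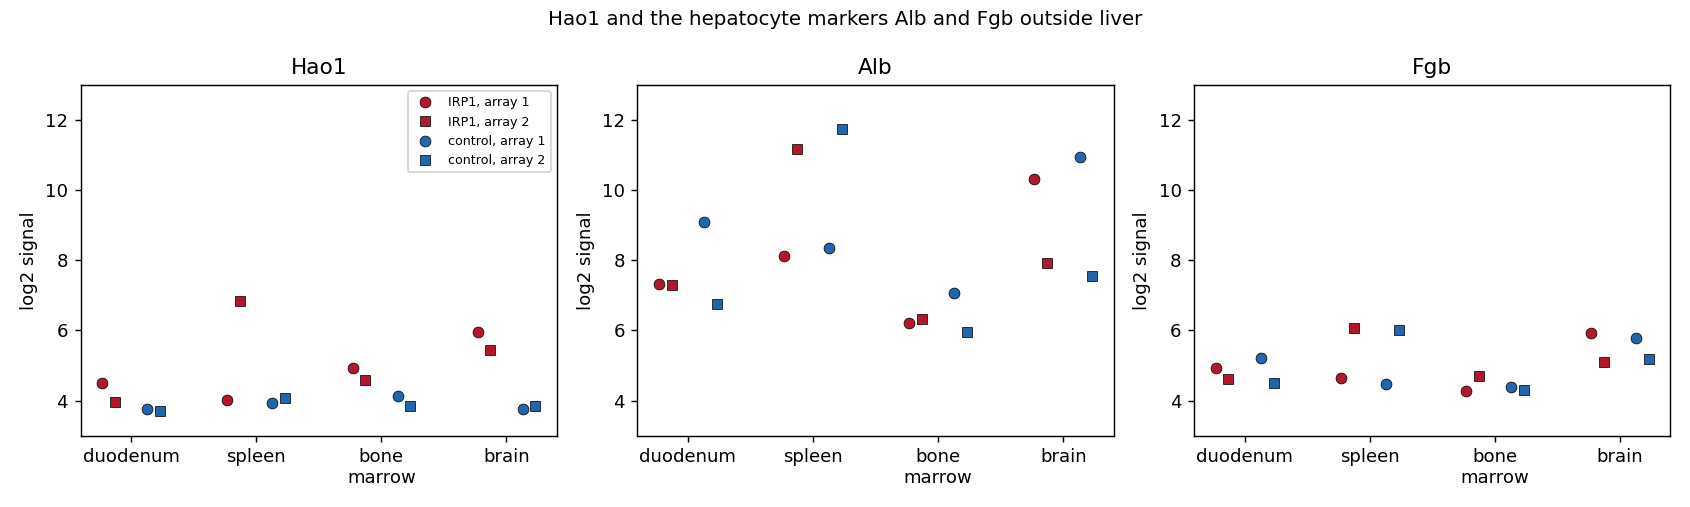
Log2 signals (vertical axes) of Hao1, Alb and Fgb in each array of the 4 tissues other than liver; red points are IRP1 arrays, blue points controls, circles array 1 and squares array 2. Alb and Fgb follow the array number in spleen in both reactions, while among the spleen arrays Hao1 is high (6.83) in IRP1 array 2 alone.

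Over the tissues, the IRP1 arrays lay above both controls for Hao1 in 4 of 5 tissues. For 1.39% of all probe sets they did so in at least 4 tissues. The mean difference of Hao1 was 1.32 log2 (SE 0.24, 95% interval 0.81 to 1.84, adjusted p = 0.0103 in limma), the 55th largest rise of 45037. It was 1.14 (adjusted p = 0.0801) in the 4 tissues without liver and 1.30 (adjusted p = 0.0403) in the 4 without spleen, where 0.462% and 0.393% of all probe sets were called higher. With both spleen arrays of number 2 left out it was 1.06 (adjusted p = 0.000161), and without the 3 arrays with low hybridization controls 1.09 (adjusted p = 0.000377). Setting every value below log2 5 to 5, which does so to every Hao1 control outside liver, gave 0.73 (adjusted p = 0.108). The IRP1 difference was 0.89 log2 larger in liver than in the mean of the other tissues (SE 0.61, adjusted p = 0.848 in limma), and the F-test over the 5 tissues did not call unequal differences (adjusted p = 0.93). Of all probe sets, 0% were called with a larger and 0.00666% with a smaller difference in liver than elsewhere, and 0.0111% passed that F-test.

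Hao2, which was well above the floor in liver alone, was not called enriched. In liver, Hao2 levels were 9.60 and 8.84 in the IRP1 arrays, against 10.13 and 9.28 in the controls, so the groups overlapped, and the difference was -0.49 log2 (SE 0.25, adjusted p = 0.413 in limma). In the other 4 tissues all Hao2 levels lay between 3.35 and 4.41, close to the floor. The mean difference was -0.20 log2 (95% interval -0.44 to 0.04, adjusted p = 0.403 in limma). The difference between Hao1 and Hao2 was tested directly, by exact permutation of the reaction labels within each tissue, with 6 arrangements in each tissue, two-sided. The IRP1 difference of Hao1 exceeded that of Hao2 by 1.52 log2 (exact p = 0.000514, adjusted over the 3 pairs of relatives 0.00154). The gap was 2.52 in liver. Outside liver the Hao1 controls and all Hao2 levels lay near the floor, and the gaps were 0.88 in duodenum, 1.43 in spleen, 0.98 in bone marrow and 1.81 in brain. The smallest p this test can give is 0.000257. With values under log2 5 set to 5, the gap was 0.83 (adjusted exact p = 0.0417), made up of 2.52 in liver, 0.92 in spleen, 0.69 in brain and 0 in duodenum and bone marrow. The spleen part came from IRP1 array 2 alone (Hao1 at 6.83), an array with low hybridization controls.

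**Figure D3:**
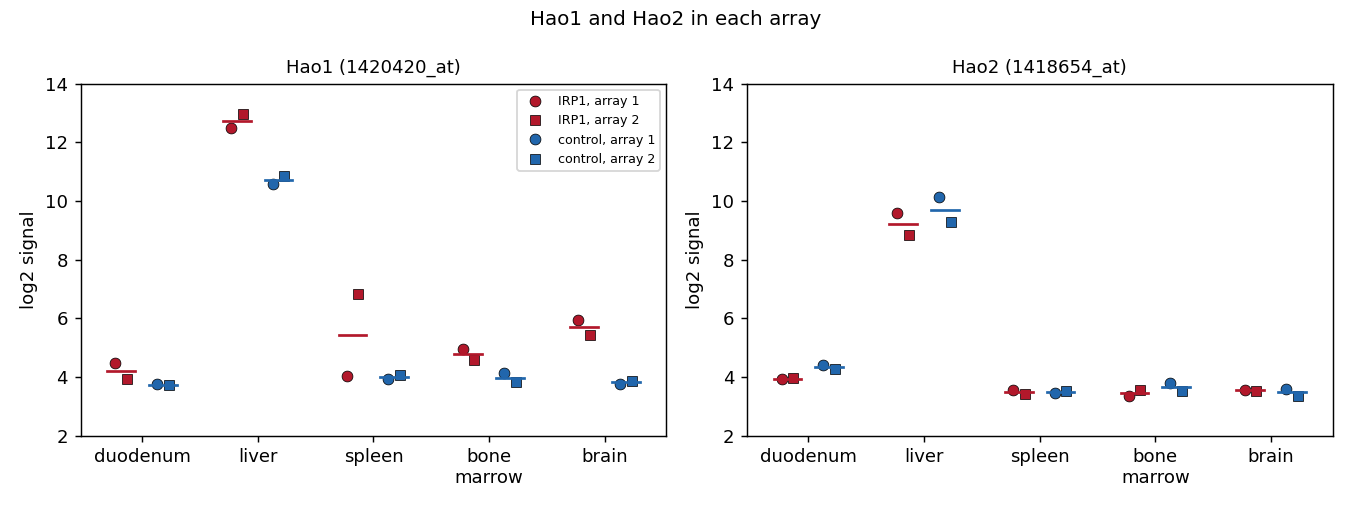
Log2 signals (vertical axes) of Hao1 and Hao2 in each array by tissue; red points are IRP1 arrays, blue points controls, circles array 1, squares array 2 and lines the group means. Hao1 is 12.50 and 12.97 in liver IRP1 arrays, above its controls at 10.57 and 10.84, while the Hao2 groups overlap in liver.

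Control precipitates also give the order of the tissues, as the RNA carried along without IRP1. For bulk RNA, fewer cells of a type and less RNA per cell cannot be told apart. The Hao1 control level was 10.70 ± 0.19 in liver (SD, n = 2), the 97th percentile of the array, against 4.0 ± 0.11 in spleen, the next tissue (adjusted p = 3.06e-08 in limma). Spleen, bone marrow (3.98), brain (3.81) and duodenum (3.73) did not differ between neighbours. For Hao2 the order was liver (9.71 ± 0.60), then duodenum (4.34 ± 0.10), with an adjusted p of 3.27e-11 in limma between them, then bone marrow (3.66), spleen (3.49) and brain (3.48) with no neighbours called. Duodenum was above brain (adjusted p = 0.0104 in limma) and spleen (adjusted p = 0.0145, and 0.0704 without the 3 arrays with low hybridization controls). Across the array, 63.1% of probe sets had control levels that differed between tissues by the F-test, as 11 of the 12 members did. Between single tissues the share called was 27.5% for duodenum and liver, 32.3% for duodenum and spleen, 29.6% for duodenum and bone marrow, and 39.6% for duodenum and brain. It was 38.4% for liver and spleen, 32.5% for liver and bone marrow, and 40.5% for liver and brain. For spleen it was 18.4% with bone marrow and 38.2% with brain, and for bone marrow and brain 41%.

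No gene of the pathway around Hao1 was called. Of 10 genes of glyoxylate and 2-hydroxyacid metabolism, 0 were called in either direction in the mean of the tissues, and 0 in any single tissue. Of all probe sets 0.773% were called higher and 1.03% lower in the mean, so 0 calls in so short a list says little. The median difference of the 10 genes was -0.16 log2 in the mean and -0.40 in liver, beside medians of -0.0056 and -0.02 over all probe sets. In liver the 10 ranged from -0.96 to 0.14. The mean of the hepatocyte markers in liver was 12.84 and 13.14 in the IRP1 arrays, against 13.63 and 13.31 in the controls, and its part in the liver values was not tested. Each list gene stands by its brightest probe set, while the medians over all probe sets include dim ones. The SD across probe sets was 1.90 and 1.95 in the liver IRP1 arrays, against 2.11 and 1.99 in the controls. The part of that narrower spread was not tested either. Agxt, the peroxisomal aminotransferase that clears glyoxylate, differed by -0.81 in liver (SE 0.25, adjusted p = 0.188 in limma). Grhpr, which reduces glyoxylate to glycolate, differed by -0.88 (SE 0.26, adjusted p = 0.172 in limma). Prodh2, hydroxyproline dehydrogenase, differed by -0.96 (SE 0.23, adjusted p = 0.107 in limma). Among 11 measured genes of the peroxisome matrix and its import, 0 were called, which says as little at those shares. Their median was -0.09 in the mean and -0.44 in liver, where they ranged from -0.62 to -0.05. Catalase (Cat) differed by -0.47 in liver (SE 0.26) and the import receptor Pex5 by -0.62 (SE 0.29), neither of them called.

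Genes with an established IRE served as the scale for Hao1. All 6 measured of 7 were called higher in the mean of the tissues by limma, with differences from 0.84 for the ferritin heavy chain (Fth1) to 2.22 for the erythroid heme enzyme Alas2 and a median of 1.60. By their brightest probe sets the ferroportin gene Slc40a1 differed by 1.36 (SE 0.12) and the hypoxia factor gene Epas1 by 1.35 (SE 0.15). Their other probe sets gave larger values, 7.10-fold for Slc40a1 1448566_at and 3.33-fold for Epas1 1449888_at, against 2.50-fold for Hao1. In liver, where Hao1 differed by 2.03 (SE 0.54), the median of the 6 was 1.59 and 3 were called. The transferrin receptor (Tfrc) differed there by 2.69 (SE 0.28), Alas2 by 2.08 (SE 0.39) and the iron transporter gene Slc11a2 by 1.92 (SE 0.31). Slc40a1 differed by 1.26 (SE 0.27), Epas1 by 0.63 (SE 0.34) and Fth1 by 0.54 (SE 0.23). Slc11a2 makes mRNAs with and without the IRE, and of its 4 probe sets 1417584_at was 1.01-fold (adjusted p = 0.971 in limma) while 1452078_a_at was 3.59-fold (adjusted p = 9.63e-07).

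Cdc14a, the next reported IRE gene, gave no call in any tissue or in the mean. Its brightest probe set, 1436913_at, had levels of 8.91 and 9.80 in duodenum IRP1 arrays, against 9.02 and 9.43 in the controls. In bone marrow the levels were 8.60 and 8.76 in the IRP1 arrays, against 7.87 and 8.79 in the controls. The groups overlapped in these 2 tissues, where the gene read highest. In spleen both IRP1 arrays, 7.56 and 7.77, lay below the controls, 8.00 and 8.08. In liver the levels were 3.51 and 3.87 in the IRP1 arrays, against 4.32 and 4.41 in the controls (-0.68 log2, SE 0.29, adjusted p = 0.322 in limma), all near the floor. Both IRP1 arrays were below both controls for 22.1% of all probe sets in spleen and 26% in liver. Brain levels overlapped, with 5.32 and 4.94 in the IRP1 arrays and 4.97 and 5.14 in the controls.

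The mean difference of Cdc14a by that probe set was -0.10 log2 (95% interval -0.37 to 0.17, adjusted p = 0.769 in limma). A second probe set, 1443184_at, read between 4.18 and 6.14 over all arrays. It differed by -0.13 (95% interval -0.33 to 0.07, adjusted p = 0.547 in limma), with IRP1 arrays below the controls in duodenum (IRP1 arrays at 5.46 and 5.91, controls at 6.14 and 6.04) and in brain (IRP1 arrays at 4.18 and 4.21, controls at 4.45 and 4.65). That was the case for 21.6% of all probe sets in duodenum and 16.9% in brain. The third, 1446493_at, stayed between 3.46 and 4.37, where little signal is measured (-0.01 log2, adjusted p = 0.958 in limma). Between the 3 probe sets of the gene, no pair differed in its IRP1 difference by the exact permutation test (lowest exact p 0.226, adjusted 0.494 over 10 pairs within genes). Whether any Cdc14a probe set lies on a transcript with the reported element, and which, was not analysed here.

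**Figure D4:**
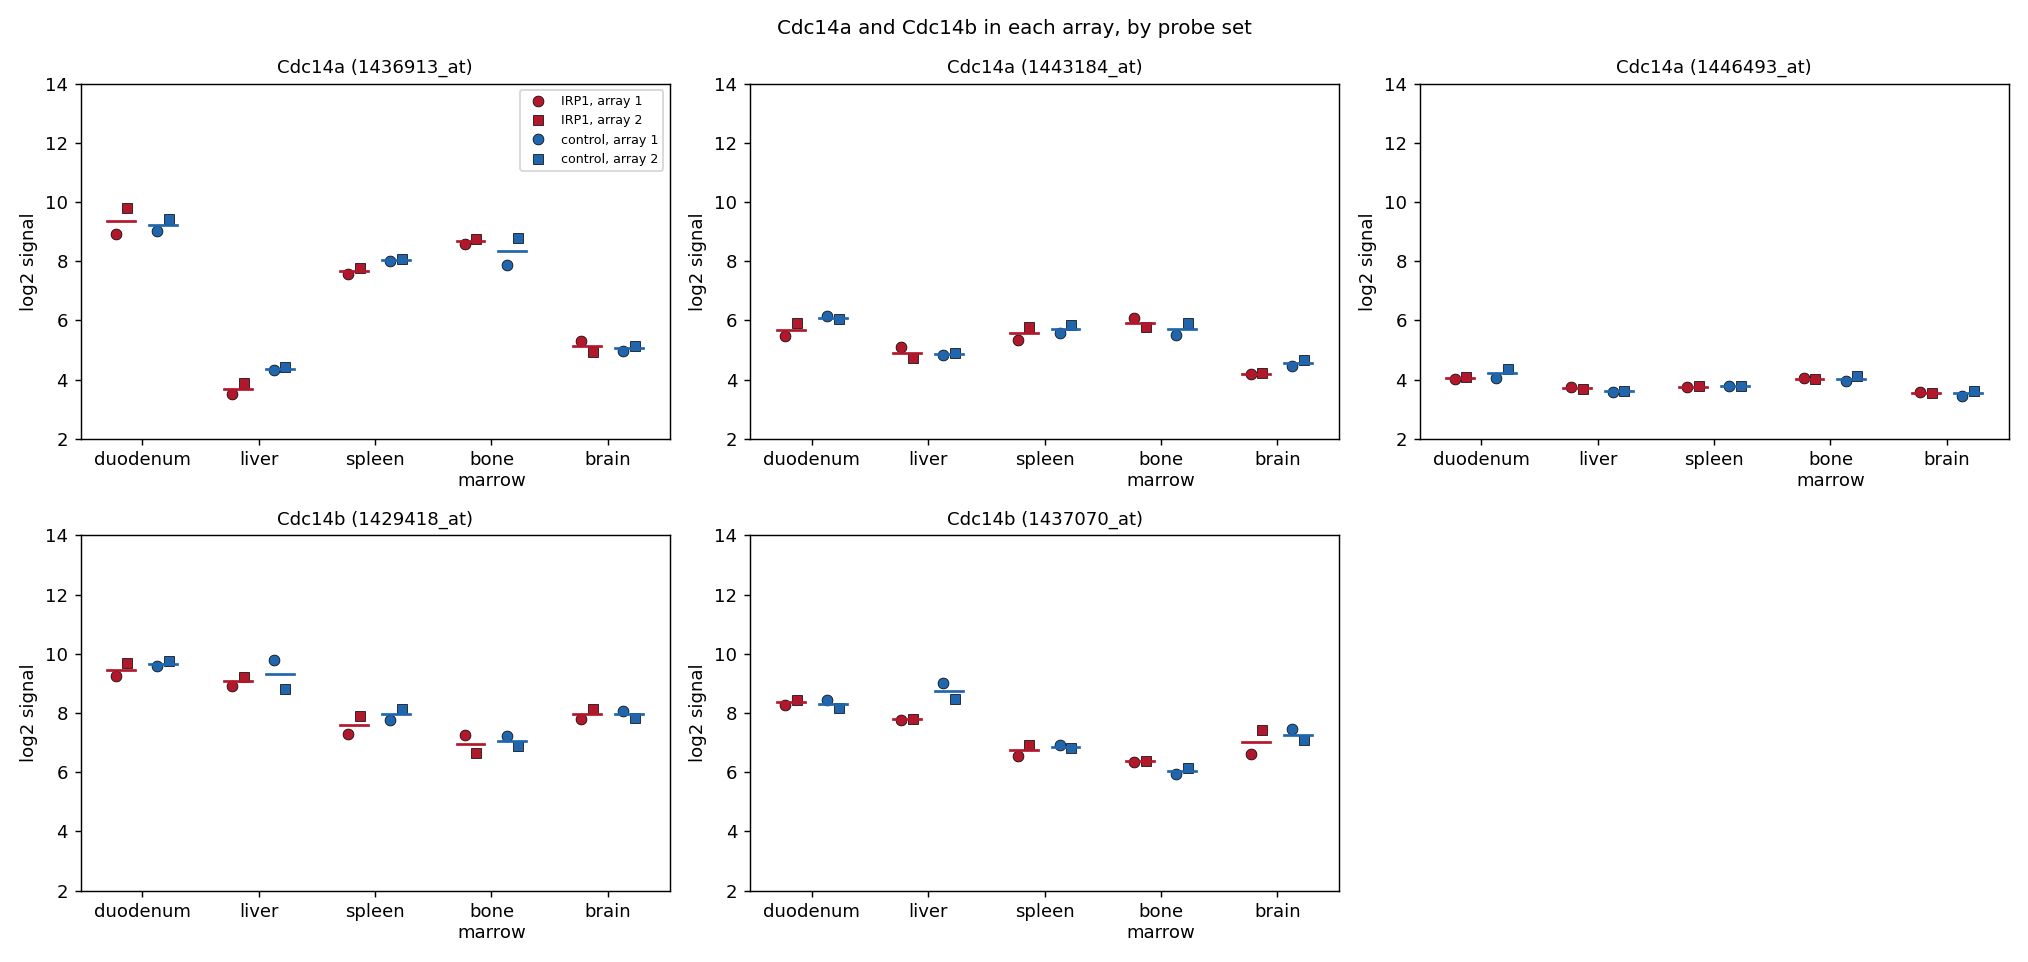
Log2 signals (vertical axes) of the 3 Cdc14a and 2 Cdc14b probe sets in each array by tissue; red points are IRP1 arrays, blue points controls, circles array 1, squares array 2 and lines the group means. IRP1 and control points lie together in most tissues, and the widest gap is that of Cdc14b 1437070_at in liver, with IRP1 arrays at 7.78 and 7.81 and controls at 9.0 and 8.48.

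Cdc14b was measured well above the floor in all tissues and was not called enriched either. For 1429418_at the levels in liver were 8.92 and 9.22 in the IRP1 arrays, against 9.80 and 8.82 in the controls. In duodenum they were 9.25 and 9.68 in the IRP1 arrays, against 9.58 and 9.75 in the controls. The groups overlapped in all 5 tissues for that probe set, and the mean difference was -0.18 log2 (95% interval -0.47 to 0.10, adjusted p = 0.551 in limma). The other probe set, 1437070_at, had 7.78 and 7.81 in liver IRP1 arrays, against 9.0 and 8.48 in the controls. That difference of -0.95 log2 (SE 0.24, unadjusted p = 0.00101, adjusted p = 0.118 in limma) was the most negative among the members. In bone marrow the same probe set lay the other way, one of 3 members (28.6% of all probe sets) with non-overlap in both directions, with 6.36 and 6.38 in the IRP1 arrays and 5.95 and 6.14 in the controls (0.32 log2, adjusted p = 0.964 in limma). Its mean difference was -0.19 (95% interval -0.41 to 0.03, adjusted p = 0.402 in limma).

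Set against each other, the brightest probe sets of Cdc14a and Cdc14b differed in their IRP1 difference by 0.08 log2 (exact permutation p = 0.682, adjusted over the 3 pairs 0.682). The gap was positive in 3 of 5 tissues, from 0.45 in bone marrow to -0.44 in liver. Over all 6 pairings of their probe sets it ranged from 0.06 to 0.18, and none passed.

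The control levels of these phosphatases varied by tissue. Cdc14a 1436913_at read 9.23 ± 0.29 in duodenum (SD, n = 2), above bone marrow at 8.33 ± 0.65 (adjusted p = 0.026 in limma). Without the 3 arrays with low hybridization controls, 1 of them a bone marrow control, that gap was 0.43 log2 (adjusted p = 0.404) in place of 0.90. Markers of pancreatic acinar cells, 5 of 6 measured, averaged 13.15 and 14.16 in the duodenum controls, against 6.78 to 6.90 in those of bone marrow, and their part in the order of the tissues was not tested. Bone marrow did not differ from spleen (8.04 ± 0.05), and spleen lay far above brain at 5.05 ± 0.12 (adjusted p = 2.04e-07 in limma), which was not called against liver (4.37 ± 0.06, adjusted p = 0.0688, and 0.0459 without the 3 arrays). Cdc14b 1429418_at had another order. Duodenum (9.67 ± 0.12) and liver (9.31 ± 0.69) did not differ, liver was above spleen (7.96 ± 0.26, adjusted p = 0.00198 in limma), spleen was level with brain (7.96 ± 0.17), and brain was above bone marrow (7.05 ± 0.26, adjusted p = 0.0239 in limma).

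None of the partners of Cdc14 was called. Of all probe sets 0.773% were called higher and 1.03% lower in the mean, so 0 calls in so short a list says little. Of 11 measured genes of mitotic exit, 0 were called in the mean or in any tissue, with a median difference of 0.06 log2. The largest values were 0.21 for Cdk1, the mitotic kinase (SE 0.12, adjusted p = 0.407 in limma), and -0.25 for Fzr1, an activator of the anaphase-promoting complex whose yeast counterpart is a substrate of Cdc14 (SE 0.12, adjusted p = 0.309 in limma).

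Cdc42bpa was measured best by 1435847_at, and no tissue separated its reactions. Brain, where the gene read highest, gave levels of 9.28 and 9.71 in the IRP1 arrays, against 8.94 and 9.47 in the controls. In bone marrow the levels were 7.93 and 8.39 in the IRP1 arrays, against 7.96 and 7.92 in the controls. In liver they were 8.03 and 7.86 in the IRP1 arrays, against 7.89 and 7.80 in the controls. The groups overlapped in every tissue, including spleen (IRP1 arrays at 7.64 and 7.90, controls at 7.65 and 7.88) and duodenum (IRP1 arrays at 7.88 and 7.77, controls at 7.68 and 7.87). The mean difference was 0.13 log2 (95% interval -0.06 to 0.33, adjusted p = 0.519 in limma), so a rise of the mean above 1.26-fold lay outside the interval. In brain alone the interval reached 1.66-fold.

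The 3 other Cdc42bpa probe sets were dimmer. The levels of 1436380_at lay between 5.51 and 7.0, and its mean difference was -0.03 (95% interval -0.21 to 0.14, adjusted p = 0.888 in limma). Both 1438449_at (3.57 to 4.27) and 1442260_at (3.46 to 4.29) stayed near the floor in every array, with mean differences of 0.07 and -0.13 (adjusted p = 0.73 and 0.348 in limma). Whether any of the 4 lies on a transcript with the reported element, and which, was not analysed here. Of the 6 pairs of Cdc42bpa probe sets, the widest difference in effect was 0.27 log2, between 1435847_at and 1442260_at (exact permutation p = 0.0198, adjusted 0.198 over 10 pairs within genes).

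Cdc42bpb was not called in any tissue, and its difference was below 0 in 4 of 5. Levels in liver were 7.57 and 7.90 in the IRP1 arrays, against 8.39 and 8.01 in the controls. In duodenum they were 8.52 and 8.46 in the IRP1 arrays, against 9.11 and 8.60 in the controls. In spleen they were 7.40 and 7.24 in the IRP1 arrays, against 7.79 and 7.40 in the controls. IRP1 arrays were below both controls in these 3 tissues, as were 26%, 21.6% and 22.1% of all probe sets in liver, duodenum and spleen. The groups overlapped in bone marrow (IRP1 arrays at 7.04 and 6.99, controls at 6.78 and 7.16) and in brain (IRP1 arrays at 8.02 and 8.41, controls at 8.71 and 8.23). The mean difference was -0.26 log2 (95% interval -0.48 to -0.04, unadjusted p = 0.022, adjusted p = 0.211 in limma).

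The kinases were also set against each other. The IRP1 difference of Cdc42bpa 1435847_at exceeded that of Cdc42bpb by 0.39 log2 (exact permutation p = 0.018, adjusted over the 3 pairs of relatives 0.027). It did so in 5 of 5 tissues, by 0.41 in duodenum, 0.56 in liver, 0.28 in spleen, 0.17 in bone marrow and 0.55 in brain. The Cdc42bpb side (-0.26) was the larger share of that gap and the Cdc42bpa side (0.13) the smaller. The call depended on the probe set, and the size of the gap varied with the arrays. With the other Cdc42bpa probe sets the gap was 0.23, 0.33 and 0.13 (adjusted exact p = 0.293, 0.0707 and 0.348 over all 11 pairings of relatives), and 1435847_at itself had an adjusted exact p of 0.0707 over those 11. From the arrays of number 2 alone the gap of 1435847_at was 0.22, and from those of number 1 alone 0.57, neither of them tested.

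**Figure D5:**
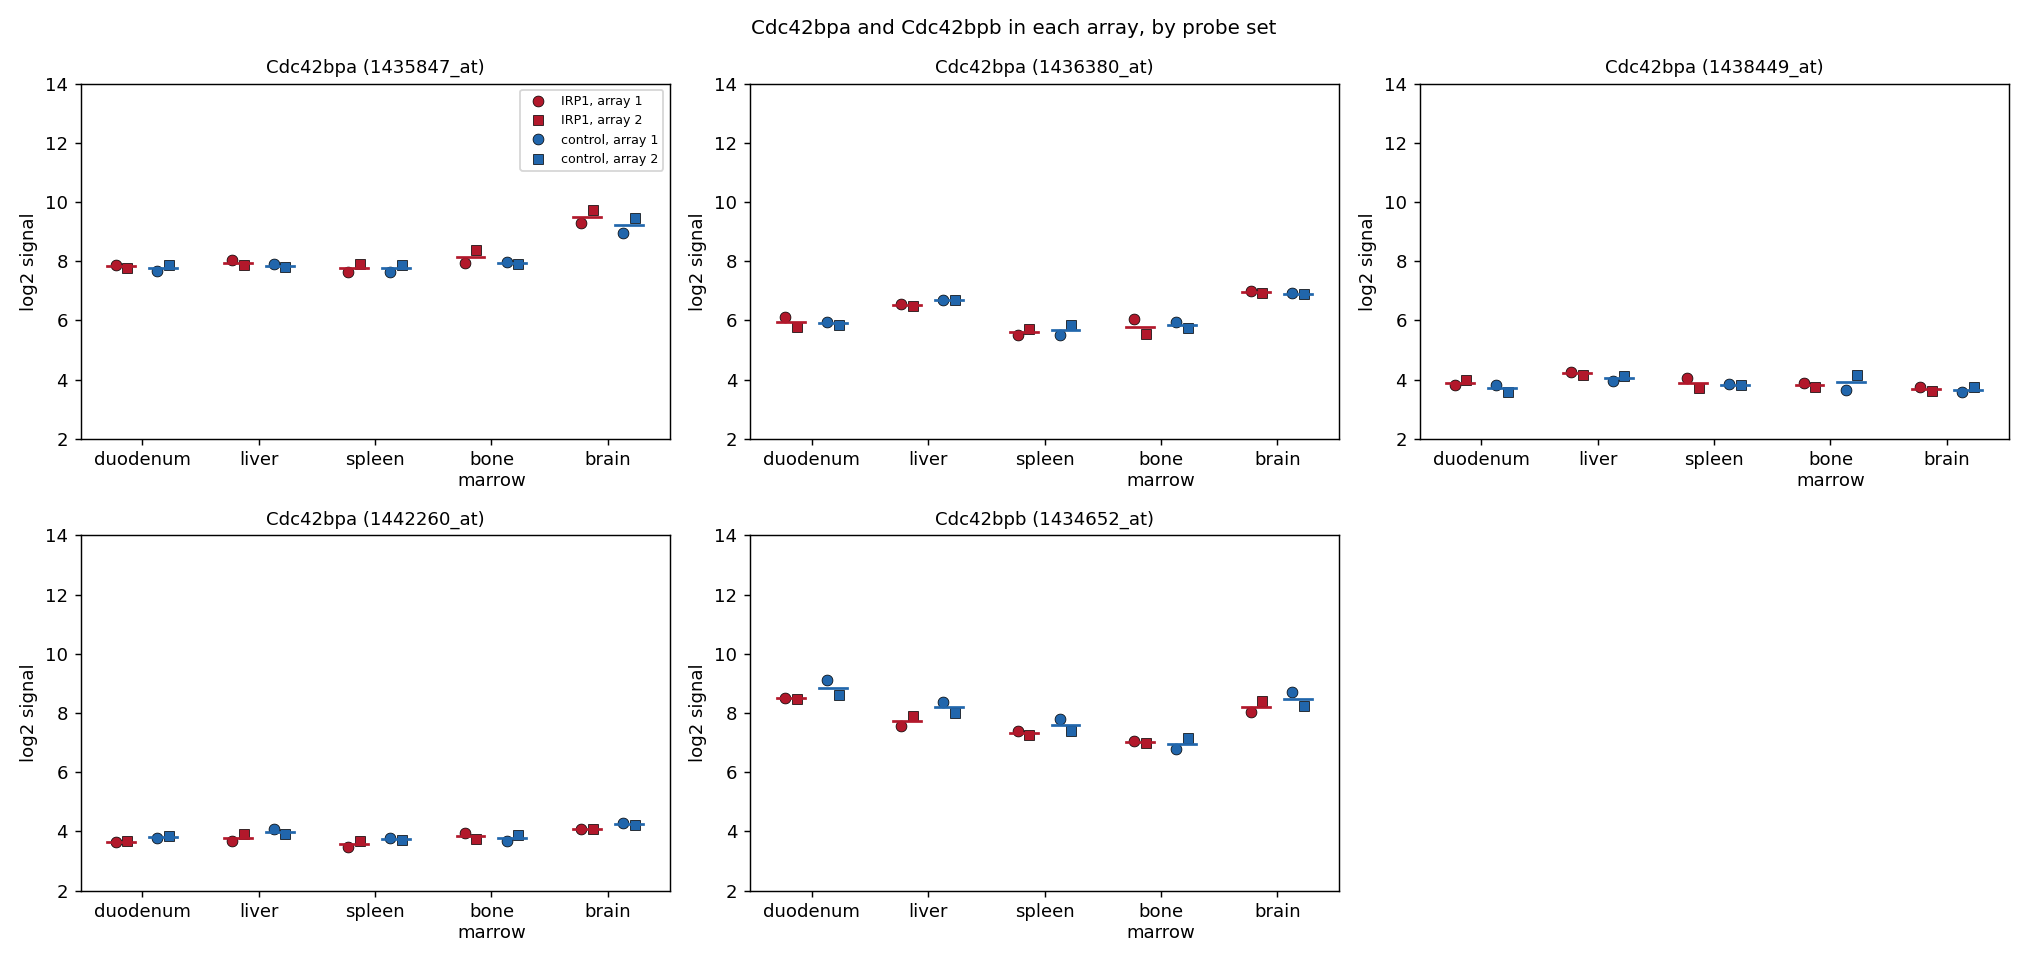
Log2 signals (vertical axes) of the 4 Cdc42bpa probe sets and of Cdc42bpb in each array by tissue; red points are IRP1 arrays, blue points controls, circles array 1, squares array 2 and lines the group means. Cdc42bpa 1435847_at is highest in brain in both reactions, its IRP1 and control points overlap in every tissue, and 1438449_at and 1442260_at stay at or below 4.29.

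In the control precipitates Cdc42bpa 1435847_at read 9.21 ± 0.37 in brain (SD, n = 2), above bone marrow at 7.94 ± 0.03 (adjusted p = 8.44e-05 in limma). Bone marrow, liver (7.84), duodenum (7.77) and spleen (7.76) did not differ between neighbours. With 1436380_at brain (6.91 ± 0.02) did not differ from liver (6.68 ± 0.01), and liver was above duodenum (5.90 ± 0.08, adjusted p = 0.00369 in limma). The 2 probe sets therefore placed liver differently in the order. Cdc42bpb read 8.85 ± 0.36 in duodenum, 8.47 ± 0.33 in brain and 8.20 ± 0.26 in liver with no neighbours called, though duodenum was above liver (adjusted p = 0.0443 in limma). Then came spleen at 7.60 ± 0.28 (adjusted p = 0.0483 in limma against liver, and 0.32 without the 3 arrays) and bone marrow at 6.97 ± 0.27.

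Around the MRCK kinases, 18 of 20 listed genes were measured, and in the mean of the tissues 0 were called higher and 1 lower by their brightest probe sets. That gene was Myl9, a myosin regulatory light chain, which fell by 0.47 on the log2 scale (SE 0.11, adjusted p = 0.042 in limma). The list's median was -0.07. Of all probe sets 0.773% were called higher and 1.03% lower in the mean. The upstream GTPase gene Cdc42 differed by -0.18 (SE 0.11, adjusted p = 0.468 in limma), Rock1, a kinase of the same family, by -0.15 (SE 0.15), and Limk1, a kinase that MRCK can activate, by 0.14 (SE 0.11). A second probe set of the citron kinase gene Cit, 1458276_x_at, was called higher in the mean (0.66, SE 0.08, adjusted p = 0.000421 in limma) and in liver (1.18, SE 0.19, adjusted p = 0.0201). The brightest Cit probe set differed by -0.05 (SE 0.08), so the probe sets of that gene disagreed, and the suffix x marks a probe set that may bind other transcripts.

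The probe sets whose levels followed each member most closely over the 20 arrays were, for Hao1, those of Cyp2d13 (Pearson r = 0.970), Tcf24 (0.965) and Taok1 (0.965). For Hao2 they were Acsm5 (0.996), Gys2 (0.996) and Slc17a1 (0.994). Cdc14a was followed by Kctd14 (0.993), Serpinb1a (0.988) and Ahnak (0.987), and Cdc14b by Ak3 (0.971), Hsd17b4 (0.965) and Socs2 (0.963). Cdc42bpa was followed by Slc1a6 (0.974), Dlx1 (0.971) and Hepacam (0.971), and Cdc42bpb by Afdn (0.965), Urgcp (0.960) and Afg1l (0.958). These values describe 20 arrays that share tissues and carry no test.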

How the data were processed

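RNA from 20 precipitations (10 groups of 2) was measured on Affymetrix Mouse Genome 430 2.0 arrays. The deposited table holds log2 signals that the authors computed. Per the series design text and the submitters' processing notes they used RMA, or MAS5 in GCOS followed by quantile normalization. The sources do not say which route gave the deposited values or which arrays were normalized as 1 set. No genome build or coordinates were used. Of 45101 probe sets, 64 Affymetrix controls were left out. The platform annotation named 34945 probe sets with 1 gene, 932 with several and 9160 with none.

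No filter was applied to the log2 values. In R 4.3.3, lmFit and eBayes of limma 3.58.1 fitted 1 linear model with a term for each of the 10 groups, with 10 residual and 6.14 prior degrees of freedom. Contrasts were IRP1 minus control per tissue, their mean with equal weights, liver against the other tissues, an F-test between tissues, and control levels between tissues. P-values are two-sided and adjusted by Benjamini-Hochberg over all 45037 probe sets, with a threshold of 0.05. Relatives and probe sets of a gene were compared by exact permutation within tissues, adjusted over 3 pairs of relatives (or 11 pairings of their probe sets) and over 10 pairs within genes. Where 1 probe set stood for a gene, it was the one with the highest mean over all arrays. The text names all members, the called genes of the lists, and the 3 genes most correlated with each member's brightest probe set. It also names some uncalled list genes, picked with their values known, for their role or the size of their difference. The procedure was tested on simulated data. The members and gene lists were chosen with earlier results of these data known. Alternatives are given in the closing section. Array numbers limit the precision, with 2 per group.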

Additional observations from a re-analysis of the deposited data

Results flagged for a closer look

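In 3 member probe sets both IRP1 arrays lay above both controls in 1 tissue and below them in another, as they did in 28.6% of all probe sets. The differences between those tissues were not tested one by one. Cdc14b 1437070_at had an IRP1 difference 1.27 log2 larger in bone marrow than in liver, and the F-test over the 5 tissues gave an adjusted p of 0.93 in limma. For Cdc42bpa 1436380_at the difference was 0.21 larger in brain than in liver (F-test adjusted p = 0.994 in limma). Cdc14a 1446493_at, near the floor of the scale, had a difference 0.14 larger in liver than in spleen (F-test adjusted p = 0.976 in limma).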

How the results depend on the processing

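Hao1 was called higher in the mean of the tissues without each single array (1.04 to 1.60 log2, adjusted p from 1.8e-07 to 0.0347 in limma) and under quantile normalization, median centring, a filter at log2 6, array weights and a trended robust prior. The replicate block gave 1.32 (adjusted p = 0.00378), changed none of 84 member calls on IRP1 differences, and gave 402 higher and 551 lower over all probe sets. Same-numbered arrays deviated together with correlations of 0.272 in duodenum, 0.533 in spleen and 0.119 in brain, but -0.074 in liver and -0.039 in bone marrow, so the numbers were not taken as pairs. A floor at log2 5 gave 0.73 (adjusted p = 0.108) and 0 members called. The following settings were chosen after seeing the data: the mean without liver (1.14, adjusted p = 0.0801), without spleen, without both spleen arrays of number 2, without the 3 arrays with low hybridization controls (also for control levels), and array standard deviation as a covariate. Without both spleen arrays of number 2, and without the 3 arrays, 1 member was called higher in liver and 1 in brain, both Hao1, and the 4 liver arrays alone also gave 1. Leaving out 1 array gave 0 to 1 members called higher in liver, in spleen and in brain; the calls came without spleen IRP1 array 1 (all 3 tissues, 2.83 log2 in spleen) or array 2 (liver and brain). The gap between Cdc42bpa and Cdc42bpb was 0.22 without replicate 1, 0.57 without replicate 2, and 0.23, 0.33 and 0.13 with the other probe sets. Control-level F-tests weakened in 11 instances, all of the dim Cdc42bpa 1442260_at and Cdc14a 1446493_at. The split of all calls in the mean was 348 higher and 464 lower, against 607 and 517 after quantile normalization, 325 and 655 after median centring, and 568 and 144 with the covariate. Without both spleen arrays of number 2 it was 225 and 123, and leaving out 1 array gave 203 to 477 higher and 118 to 1352 lower. By tissue, counts moved under the floor (276 higher and 218 lower in liver, against 41 and 42), in the 4 arrays of a tissue alone (0 called in spleen and brain) and without single arrays (6 to 210 higher in spleen, against 31, and 0 to 180 lower in bone marrow, against 2). A group left with 1 array was taken to vary like the others. The cause of these shifts was not tested. Signals near the floor limit Hao1 outside liver and Hao2 and the dim probe sets of Cdc14a and Cdc42bpa.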
